A study of Mus musculus with 24 samples.

Results

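This account follows the transcriptome of old skeletal muscle after delivery of the longevity-associated protein Klotho, in 8 of the 24 libraries of the series. The members were chosen by their titles alone: 4 libraries of old mice that received AAV-Klotho (AAV-Kl) and 4 of old mice that received a vector with green fluorescent protein (GFP). All 8 came from the gastrocnemius, a calf muscle, of female C57BL/6J mice aged 21 to 24 months, with 1 mouse per library. Both vectors were adeno-associated viruses of serotype 8 given into the tail vein at 3e8 vector genomes per mouse, and muscle was collected 14 days later. The AAV-Kl vector carried murine alpha-Klotho with a CD33 signal sequence and a V5 tag, and the control vector carried enhanced GFP. Both were driven by the LP-1 promoter, which is active in liver. By this design Klotho was meant to reach the muscle as a circulating protein, and the muscle was not itself the intended site of expression. A second pair of groups, oldest-old mice of 27 to 29 months with the same vectors (4 AAV-Kl and 4 GFP), is set beside the old mice where the ages are compared. These mice share no library with the old mice. Young mice of 3 to 6 months that received the GFP vector (4 libraries) entered the fit and are cited for 2 genes.

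Alpha-Klotho is a single-pass membrane protein made mainly in the kidney, and its shed extracellular part circulates. With FGF receptors it forms the high-affinity receptor for FGF23, the hormone that lowers phosphate and active vitamin D. It is also described as a restraint on Wnt, insulin/IGF and TGF-beta signalling, and loss of Klotho in mice leads to early muscle wasting. Old muscle is known for low-grade inflammation, denervation of fibers, a shift between fiber types and a decline of mitochondrial function, and the question here was which genes and gene families of old muscle differ after AAV-Kl.

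The libraries were skeletal muscle with other tissues mixed in unequally. Muscle genes were high and alike in all 8, with a mean normalized count for the fast myosin heavy chain Myh4 of 2895200 with AAV-Kl and 2834600 with GFP. Normalized counts are read counts scaled to a common library size of 49472169 reads. Between 36415886 and 57976771 reads per library fell on genes with GFP, and 45738616 to 50485633 with AAV-Kl. Alb, which encodes the liver's plasma protein albumin, read 32648, 139, 44.5 and 2905 in GFP mice 1 to 4, and 679, 199, 260 and 5256 in AAV-Kl mice 1 to 4. Alb was thus far higher in GFP mouse 1 than elsewhere, and AAV-Kl mouse 4 and GFP mouse 4 came next. Summed over 20 hepatocyte genes, GFP mouse 1 was also highest, at 63579. There AAV-Kl mouse 2 came next at 14542, then AAV-Kl mouse 4 at 12349 and GFP mouse 4 at 11065. Krt10, an epidermal keratin, read 784 in AAV-Kl mouse 2 and 28.7 to 91.4 in the other 7 mice. Fabp4, a fatty acid carrier of fat and capillary cells, was at 34413 in AAV-Kl mouse 2 and between 8434 and 14635 elsewhere. Cd79a, part of the B-cell receptor, read 582 in AAV-Kl mouse 3 and at most 32.4 elsewhere. Bulk tissue cannot separate more cells of a type from more RNA per cell.

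**Figure D1:**
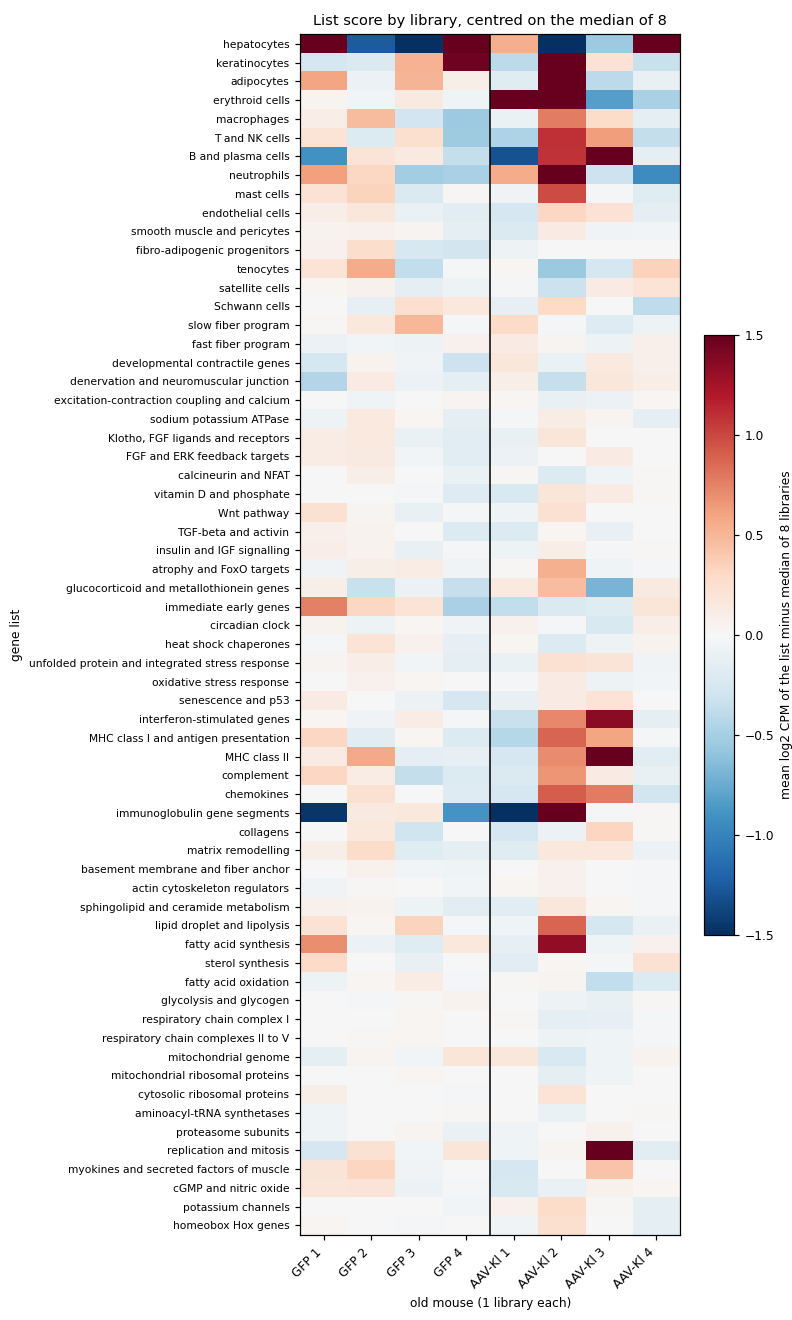
Score of each gene list (mean log2 CPM, the library-scaled count, of its members) in each of the 8 old libraries, minus the median of the 8; rows are lists, columns are mice, and the line separates GFP from AAV-Kl. Colours are capped, so the largest deviations look alike. AAV-Kl mouse 2 is high for skin, fat, neutrophil and immunoglobulin genes, and AAV-Kl mouse 3 for B-cell, interferon and mitosis genes. Red cell genes are high in AAV-Kl mice 1 and 2. Liver genes are high in GFP mice 1 and 4 and AAV-Kl mouse 4, and low in GFP mouse 3 and AAV-Kl mouse 2.

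No gene separated AAV-Kl from GFP after adjustment across the transcriptome. Of 17465 genes with enough reads to test, 317 (1.82%) had an unadjusted p under 0.05 in edgeR's quasi-likelihood test and 0 had an adjusted p under 0.05, with a lowest adjusted p of 0.99973. Such genes are named below as called, which is a description and not a discovery, because fewer were called than the threshold itself would pass if no gene differed. The word is used alike for the oldest-old comparison and for the difference between the ages. DESeq2 called 415 unadjusted and 0 adjusted on the same libraries. It tested more genes, so that its 415 were a lower share, 1.14%. Called genes were higher with AAV-Kl in 173 cases (0.991%) and lower in 144 (0.825%). In 292 genes (1.67%) all 4 AAV-Kl libraries lay on one side of all 4 GFP libraries, in 140 above (0.802%) and in 152 below (0.87%), and 101 genes (0.578%) met both criteria, 50 higher and 51 lower. The typical gene differed little, with a median absolute log2 fold change of 0.08 over all genes and 0.70 over the called ones.

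The 8 libraries did not fall into 2 treatment clusters. Over the 500 most variable genes, the variance between AAV-Kl and GFP libraries was 0.544 of that within them as a pseudo-F (exact permutation test over 70 label splits, p = 0.943). The first principal component, 45% of the variance, was led by liver genes at its positive end and by immunoglobulin and keratin genes at its negative end. On this component GFP mouse 1 lay at the positive end with a score of 37.4 and AAV-Kl mouse 2 at the negative end with -37.3. The next, with 22.6%, was led by skin keratins and set AAV-Kl mouse 2 apart at 32.1. The third, with 15.8%, was led by B-cell genes and set AAV-Kl mouse 3 apart at 29.7. AAV-Kl mice also varied more among themselves, with a median standard deviation of log2 expression of 0.198 against 0.156 with GFP. AAV-Kl mice 2 and 3 had 5.61% and 4.44% of genes more than 1 log2 unit from the median of the 8, and the other 6 mice 1.35% to 2.22%.

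Endogenous Klotho and its receptor partners did not move together. Kl itself was nearly silent in muscle, at 10.2, 11.8, 0 and 12.4 normalized counts with GFP and 3.45, 7.85, 6.89 and 9.35 with AAV-Kl (log2 fold change -0.36 ± 0.60 (SE), not called). The vector's Klotho was codon-optimized and made under a liver promoter, and its level was not measured by these reads. Fgf23, the bone hormone that Klotho helps to bind, was at 0 to 4.17 counts in the 8 mice and was not tested. Fgfr1, the main receptor partner of alpha-Klotho, read 4269, 4575, 4383 and 4842 with GFP and 4771, 6267, 4214 and 3764 with AAV-Kl (log2 fold change 0.07, not called). Klb, the co-receptor for FGF19 and FGF21, was at 212 in AAV-Kl mouse 2 and 10.3 to 111 in the other 7, and Fgfr2, an FGF receptor of epithelia, was also highest in AAV-Kl mouse 2, at 121. Their fold changes of 0.55 and 0.61 became -0.66 and -0.89 without that mouse. Of the 20 tested members of the list of Klotho, FGF ligands and receptors, 0 were called, against 1.82% of all genes, and their median log2 fold change was 0.00.

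The gene with the largest difference by the naming rule was Cxcl13, the chemokine that draws B cells into lymphoid follicles (chromosome 5, 95956951 to 95961068, GRCm38). It read 38.1, 42.8, 36.1 and 32.7 with GFP and 57.5, 1288, 155 and 54.0 with AAV-Kl. All 4 AAV-Kl mice were above all 4 GFP mice, with AAV-Kl mouse 2 far higher than the rest. The fitted fold was 10.3 (log2 fold change 3.37 ± 1.41 (SE), adjusted p = 0.99973 in edgeR), and leaving out single mice moved the log2 fold change between 1.25 and 3.73. The call was kept in 3 of 8 leave-one-out fits and was lost without AAV-Kl mouse 2 and without each GFP mouse. In 4 young GFP mice the same gene ranged from 2.31 to 328.

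Trp53inp1, a p53 target that takes part in autophagy and stress-induced arrest, was higher in a more even way (chromosome 4, 11156431 to 11174379). GFP mice read 636, 619, 638 and 616, a narrow band, and AAV-Kl mice read 907, 1101, 953 and 713. The log2 fold change was 0.55 ± 0.22 (SE), and it stayed called in 7 of 8 leave-one-out fits. Young GFP mice read 1056 to 1434, so that AAV-Kl mice lay between old and young GFP mice except AAV-Kl mouse 2, which was inside the young range. Since the old GFP mice enter both comparisons, these values are set side by side without a test. In oldest-old mice the log2 fold change was -0.15, not called, and the difference between the ages was called. Oldest-old GFP mice read 843, 742, 704 and 1705, and oldest-old AAV-Kl mice 773, 963, 1016 and 850. Oldest-old GFP mouse 4 was thus far above the rest, and no fit left it out.

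The other genes named as higher differed by less than Cxcl13. Slc7a7, a subunit of the y+L amino acid exchanger that is abundant in macrophages, read 45.1 to 62.0 with GFP and 66.7, 78.5, 131 and 66.5 with AAV-Kl (log2 fold change 0.69). Chst14, which sulfates dermatan chains of matrix proteoglycans, read 95.9 to 122 with GFP and 136 to 151 with AAV-Kl (0.41). Dgkb, a diacylglycerol kinase, had a log2 fold change of 0.36, and Lrmda, known for its part in melanocyte differentiation, one of 0.29. Iqcb1, a ciliary protein also called nephrocystin-5, read 179 to 196 with GFP and 208 to 222 with AAV-Kl (0.23). Mbtd1, a chromatin reader of the NuA4 acetyltransferase complex, had a log2 fold change of 0.20. Mier3, a histone deacetylase partner, Zfp949, a zinc finger protein, and Ankrd39, an ankyrin repeat protein, differed by 0.16 to 0.22. Mbtd1 was called in 7 of 8 leave-one-out fits, Zfp949 in 6, Lrmda and Iqcb1 in 5, Slc7a7 in 4, Mier3 in 3, Dgkb and Ankrd39 in 2, and Chst14 in 1.

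The 12 genes named as lower differed by small amounts. Six2, a homeobox factor of muscle and kidney development, had the largest, at 744, 774, 851 and 841 with GFP and 651, 543, 468 and 680 with AAV-Kl (log2 fold change -0.45 ± 0.20 (SE)). Cux2, a homeobox repressor, read 180 to 202 with GFP and 123 to 168 with AAV-Kl (-0.39). Hoxc5, a patterning gene of the Hox clusters, read 102 to 133 with GFP and 83.1 to 96.6 with AAV-Kl (-0.35). Endog encodes the mitochondrial nuclease endonuclease G (chromosome 2, 30171493 to 30174069). It read 704, 629, 624 and 661 with GFP and 559, 438, 530 and 553 with AAV-Kl, with no overlap (log2 fold change -0.33 ± 0.12 (SE)).

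Endog was called in all 8 leave-one-out fits, as were Naa10, Mrto4 and Wfdc1. Naa10, the catalytic subunit of the main N-terminal acetyltransferase, read 352 to 408 with GFP and 346, 340, 324 and 274 with AAV-Kl (log2 fold change -0.22). Mrto4, an assembly factor of the large ribosomal subunit, read 772, 732, 776 and 753 with GFP and 651, 610, 680 and 679 with AAV-Kl (log2 fold change -0.21 ± 0.07 (SE)). Wfdc1, a secreted protein with a whey acidic protein domain, read 2760 to 3365 with GFP and 2472 to 2722 with AAV-Kl (-0.20). The remaining members of the group were Casc4, Smyd5, a lysine methyltransferase, Jade1, a subunit of a histone acetyltransferase complex, Zfp939, annotated as a pseudogene, and Spata5l1, annotated here as a processed transcript. Their log2 fold changes lay between -0.36 and -0.19. Zfp939 was called in 7 of 8 leave-one-out fits, Smyd5 in 6, Hoxc5 in 4, Six2 and Spata5l1 in 3, and Cux2, Casc4 and Jade1 in 2. Neither the higher nor the lower genes passed the adjusted test.

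**Figure D2:**
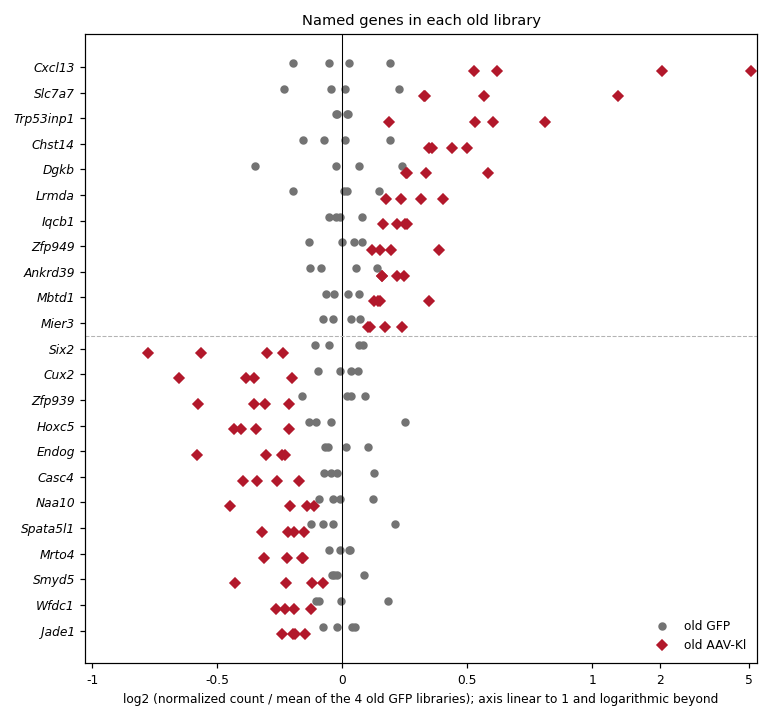
Normalized count of each of 23 named genes in each old library, as log2 ratio to the mean of the 4 GFP libraries; grey circles are GFP mice and red diamonds AAV-Kl mice. By the naming rule the groups do not overlap; the exception in size is Cxcl13, where AAV-Kl mouse 2 lies beyond every other point.

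Interferon-stimulated genes formed the longest list whose fitted means all lay on one side. Type I interferon acts on a short promoter element and switches on antiviral effectors. All 31 listed genes had a higher fitted mean with AAV-Kl, where 52.7% of all genes did, and their median log2 fold change was 0.54. Only 2 of the 31 were called, against 0.991% of all genes called in this direction, and in 0 of the 31 were the groups without overlap. Oasl2, a 2'-5' oligoadenylate synthetase-like sensor, read 242, 274, 293 and 232 with GFP and 215, 441, 1030 and 248 with AAV-Kl (log2 fold change 0.90 ± 0.42 (SE)). Oas3, which makes the 2-5A signal that activates RNase L, read 4.24, 12.8, 11.1 and 7.90 with GFP and 14.9, 21.6, 81.7 and 12.5 with AAV-Kl (1.87). Isg15, a ubiquitin-like antiviral protein, read 30.1 to 57.0 with GFP and 32.2, 63.8, 249 and 40.5 with AAV-Kl (1.07, not called). In each of these genes AAV-Kl mouse 3 was highest, AAV-Kl mouse 2 next, and AAV-Kl mice 1 and 4 were near the GFP mice. Without AAV-Kl mouse 3 the list's median was 0.16, with 22 genes higher and 9 lower. The oldest-old mice did not show the direction, with 16 of 31 higher and a median of 0.035.

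The promoters of these genes are shown with the letters of the element through which interferon-stimulated genes are usually switched on, which not all of them hold. Each is the 150 bases before the annotated start, from RefSeq on GRCm38.p6, 5' to 3' on the gene's strand. Capitals mark matches to GAAA, any 2 bases and GAAA, the core of the interferon-stimulated response element, searched on both strands. The Isg15 window is chr4:156200819-156200968 on the minus strand, and its 3 matches, at -78, -72 and -66, overlap each other. The Oas3 window is chr5:120777660-120777809 on the minus strand with 1 match at -75, and the Oasl2 window is chr5:114896784-114896933 on the plus strand with 0 matches.
Isg15: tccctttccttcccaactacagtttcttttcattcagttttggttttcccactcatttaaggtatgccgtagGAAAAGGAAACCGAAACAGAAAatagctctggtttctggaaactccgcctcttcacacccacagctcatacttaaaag
Oas3: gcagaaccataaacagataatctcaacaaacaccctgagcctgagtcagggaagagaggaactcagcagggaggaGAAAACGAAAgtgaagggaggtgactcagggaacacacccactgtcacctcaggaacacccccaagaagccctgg
Oasl2: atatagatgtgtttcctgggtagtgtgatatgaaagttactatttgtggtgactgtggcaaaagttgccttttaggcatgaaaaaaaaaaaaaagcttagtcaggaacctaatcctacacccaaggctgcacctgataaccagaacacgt
A promoter was found for 23 of the 31 listed genes, and 10 of these 23 held the letters, including Bst2, Gbp2, Ifit1, Ifit3 and Rsad2. The same letters were in 521 of all 32851 promoter windows of this length (1.59%). A match describes the sequence and says nothing of binding in these muscles.

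Antigen presentation and immunoglobulin genes were high in AAV-Kl mice 2 and 3 to differing degrees. All 14 genes of MHC class I and its peptide loading were higher in fitted mean, with a median log2 fold change of 0.33 and 0 called, and without AAV-Kl mouse 2 the median was 0.09 with 11 of 14 higher. B2m, the light chain of class I molecules, read 6015 to 7889 with GFP and 5051, 12103, 8564 and 6165 with AAV-Kl. All 10 class II genes were higher as well (median 0.49, 0 called), and in Cd74, the class II invariant chain, AAV-Kl mice 2 and 3 read 4319 and 5462 and the other AAV-Kl mice 1877 and 2137. The summed counts of the 10 class II genes were 5536, 8720, 5300 and 5107 with GFP and 4736, 10655, 14241 and 5278 with AAV-Kl. GFP mouse 2 was thus above the other GFP mice and above AAV-Kl mice 1 and 4. Without AAV-Kl mouse 3 the class II median was 0.10, with 6 of 10 higher. Immunoglobulin gene segments are rearranged in each B-cell clone, so single clones can fill a segment. Of 393 listed segments 41 had enough reads, and 7 of these were called, all higher, where 0.991% of all genes were called higher. Igkc, the kappa constant region, read 139, 1180, 2280 and 940 with GFP and 246, 10293, 26958 and 2407 with AAV-Kl (log2 fold change 3.14 ± 1.31 (SE)). The kappa variable segments Igkv6-15 and Igkv4-91 read 8570 and 8349 in AAV-Kl mouse 3, and at most 11.8 and 211 in any other mouse. Igkv3-5 read 461 in AAV-Kl mouse 2 and at most 10.4 elsewhere, and Igkv6-20 read 980 there and at most 117 elsewhere. Reads of near-identical segments may be split between them by the counting, so single segment counts are uncertain. The median of the 41 segments was 1.152 and became -0.22 without AAV-Kl mouse 2.

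Genes of the cells that carry these programs were not called as lists. Over all genes 52.7% were higher, 0.991% were called higher and 0.825% were called lower. Among 12 genes of B and plasma cells 10 were higher and 1 called (Igkc, described above), among 10 of T and NK cells 9 higher and 0 called, among 15 of macrophages 12 and 0, and among 6 of neutrophils 5 and 0. Without AAV-Kl mouse 2, 1 of the 6 neutrophil genes was higher and the macrophage median of 0.36 was 0.10, and without AAV-Kl mouse 3 the B-cell median of 1.36 was 0.21. Ms4a1, the B-cell antigen CD20, read 3.39 to 19.5 with GFP and 499 in AAV-Kl mouse 3, with 1.04 to 14.7 in the other AAV-Kl mice. Among 8 mast cell genes 6 were higher, 2 without AAV-Kl mouse 2, and Cpa3, the mast cell carboxypeptidase, was at 543 in AAV-Kl mouse 2 and 229 to 314 in all others. Of 23 chemokine genes tested 15 were higher and Cxcl13 alone was called. Ccl8, a monocyte attractant, read 273 and 396 in AAV-Kl mice 2 and 3 and 14.9 to 75.6 in the others. Complement had 18 of 21 genes higher, led by C3 at 18287 in AAV-Kl mouse 2 against 4711 to 8754 elsewhere. Its 1 called gene, Cfi, was lower, at 241 in GFP mouse 1 and 1.39 to 41.5 in the others.

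Cell-cycle genes were highest in 1 mouse, AAV-Kl mouse 3. Of 26 replication and mitosis genes 25 had a higher fitted mean (median log2 fold change 0.40), where 52.7% of all genes did, and 1 was called, where 0.991% were called higher. Top2a, the topoisomerase of dividing cells, read 11 to 41 with GFP and 18.4, 14.7, 302 and 16.6 with AAV-Kl. Mki67, the classical proliferation antigen, read 475 in AAV-Kl mouse 3 and 24.1 to 71.1 in all others. Nusap1, a spindle microtubule protein, read 47.5, 40.1, 58.4 and 48.5 with GFP and 87.4, 58.9, 154 and 57.1 with AAV-Kl (log2 fold change 0.88 ± 0.29 (SE)), so that AAV-Kl mice 1, 2 and 3 were above every GFP mouse, mouse 2 by little. Without AAV-Kl mouse 3 the list's median was -0.16, with 9 genes higher and 17 lower.

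**Figure D3:**
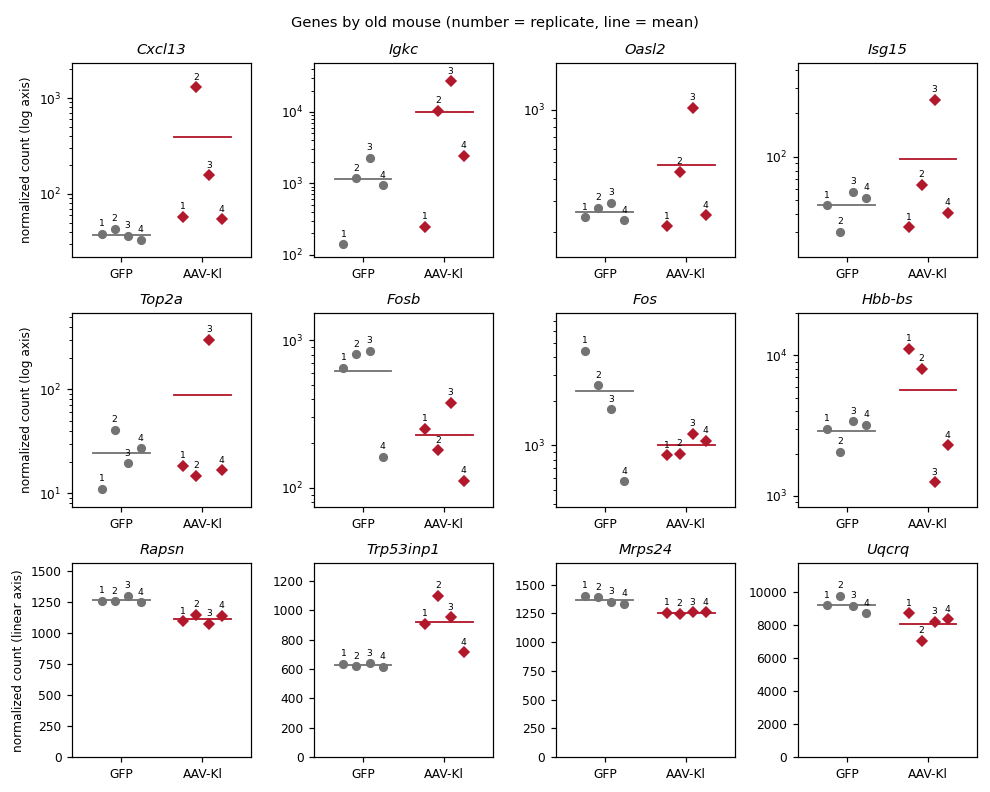
Normalized counts of 12 genes in each old mouse, with the replicate number at each point and a line at the group mean; the upper 2 rows have logarithmic axes and the bottom row linear axes from 0. Cxcl13, Igkc, Oasl2, Isg15 and Top2a are high in AAV-Kl mouse 2, mouse 3 or both, and Fosb and Fos are spread among the GFP mice, while Rapsn, Trp53inp1, Mrps24 and Uqcrq differ by little with no overlap.

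Immediate early genes, which encode the transcription factors induced within minutes of nerve activity, stretch or stress, leaned lower. Of 20 genes, 18 were lower in fitted mean (median log2 fold change -0.28) and 1 was called, against 0.825% of all genes called lower. Fosb, an AP-1 subunit, read 651, 805, 848 and 161 with GFP and 251, 180, 375 and 111 with AAV-Kl (log2 fold change -1.43 ± 0.62 (SE)). Fos read 4425, 2571, 1761 and 570 with GFP and 855, 874, 1194 and 1078 with AAV-Kl (-1.22, not called). In both genes GFP mouse 4 was low and the other 3 GFP mice were above all 4 AAV-Kl mice. Nr4a1, an orphan receptor induced by activity, was highest in GFP mouse 1 at 21091 and next highest in AAV-Kl mouse 4 at 18268. Egr1, a zinc finger factor downstream of ERK, read 1681 to 4352 with GFP and 1756 to 2615 with AAV-Kl. Without GFP mouse 1 the list's median was -0.08, with 12 of 20 genes lower. In oldest-old mice 9 of 20 were higher and the median was -0.12.

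Both leading members carry a cAMP response element core near their start, shown here because this group is known as a readout of CREB and SRF signalling. Capitals mark TGACG on either strand in the 150 bases before the start (RefSeq, GRCm38.p6). The Fosb window is chr7:19310046-19310195 on the minus strand with 1 match at -60, and the Fos window is chr12:85473740-85473889 on the plus strand with matches at -129 and -66.
Fosb: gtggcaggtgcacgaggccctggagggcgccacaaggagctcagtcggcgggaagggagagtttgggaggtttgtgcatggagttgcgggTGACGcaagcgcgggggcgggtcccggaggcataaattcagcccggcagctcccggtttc
Fos: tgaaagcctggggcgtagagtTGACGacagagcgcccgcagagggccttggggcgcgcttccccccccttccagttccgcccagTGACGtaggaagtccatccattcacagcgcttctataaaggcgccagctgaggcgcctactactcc
Of 16 listed genes with a promoter, 10 held these letters, and 4376 of all 32851 windows (13.3%) did.

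Nuclear genes of mitochondria leaned lower with AAV-Kl by small amounts that were unequal among mice. The mean log2 CPM of complex I genes was 6.54 to 6.58 with GFP and 6.57, 6.41, 6.43 and 6.53 with AAV-Kl, so that AAV-Kl mouse 1 was within the GFP range. In complex I, the entry point of the respiratory chain, 34 of 36 subunit genes were lower (median log2 fold change -0.08), with 0 called and 1 without overlap. In complexes II to V, 40 of 46 were lower (-0.05), with 0 called and 3 without overlap. Among 77 genes of the mitochondrial ribosome, which makes the 13 proteins of the mitochondrial genome, 64 were lower (-0.05). Here 6 genes were called, all lower, and 4 were without overlap, against 0.825% and 0.87% of all genes. Mrps24, of the small subunit, read 1405, 1391, 1350 and 1332 with GFP and 1256, 1247, 1260 and 1261 with AAV-Kl (log2 fold change -0.13 ± 0.04 (SE)). Mrpl35 and Mrpl58, of the large subunit, also showed no overlap, with log2 fold changes of -0.13 and -0.16. Mrps34 read 305 to 387 with GFP and 238 to 320 with AAV-Kl (-0.33). Mrps28 and Mrpl55 were the other called members, at -0.15 and -0.13.

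Subunits of the chain itself moved in the same direction and were not called. Uqcrq, of complex III, read 9177, 9760, 9122 and 8693 with GFP and 8687, 7037, 8174 and 8332 with AAV-Kl (log2 fold change -0.19 ± 0.09 (SE), not called). Ndufs7, of complex I, read 8384 to 9159 with GFP and 7478 to 8357 with AAV-Kl (-0.15, not called), and Atp5b, of the ATP synthase, read 105280 to 110590 with GFP and 101850 to 110360 with AAV-Kl. AAV-Kl mouse 2 was the lowest of the 8 for Uqcrq, Ndufs7, Mrps34 and Mrpl35. Leaving out that mouse left medians of -0.05 for complex I, -0.03 for complexes II to V and -0.02 for the mitochondrial ribosome, with 30 of 36, 38 of 46 and 48 of 77 genes lower. The 13 genes of the mitochondrial genome were mixed, 5 higher and 8 lower, and mt-Co1, a subunit of complex IV, read 2051200 to 2357700 with GFP and 1854500 to 2442400 with AAV-Kl. Fatty acid oxidation had 23 of 25 genes lower (median -0.12, 0 called), and glycolysis and glycogen metabolism 21 of 26 (-0.02, 0 called).

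The oldest-old mice went the other way in these mitochondrial lists. There 35 of 36 complex I genes, 45 of 46 of complexes II to V and 67 of 77 of the mitochondrial ribosome were higher with AAV-Kl, where 52.4% of all genes were, with medians of 0.12, 0.15 and 0.10. In oldest-old mice 7.13% of all genes were called, and of these lists 4, 8 and 13 genes were, all higher. The difference between the ages was tested gene by gene. Over all genes 5.1% had an unadjusted p under 0.05 for that difference and 0 an adjusted one. Of complex I 8 of 36 genes did, of complexes II to V 10 of 46, and of the mitochondrial ribosome 13 of 77. Mrps24 was at -0.13 in old and 0.10 in oldest-old mice and Uqcrq at -0.19 and 0.20, and the difference was called in both. Only old mice were left out in turn, here and for every other list. The weight of single oldest-old mice in these directions and differences was not tested.

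Heat shock chaperones differed between the ages in the same sense. In old mice 19 of 22 were lower (median log2 fold change -0.07) and 0 were called. Hspa1b, the inducible HSP70, read 186, 350, 213 and 114 with GFP and 168, 129, 130 and 160 with AAV-Kl (-0.56, not called), and the near-identical Hspa1a read 108 to 283 with GFP and 102 to 183 with AAV-Kl (-0.37). Reads of these copies may be split between them by the counting. In oldest-old mice 18 of 22 were higher and 11 called, all higher, and 11 had an unadjusted p under 0.05 for the difference between ages. Of all genes tested 5.1% had such a p, and in oldest-old mice 52.4% were higher and 7.13% called. Hspa1b was at 2.31 there, with the difference called, and Dnajb1, the HSP40 partner of HSP70, at -0.06 in old and 1.81 in oldest-old mice, with the difference called as well. Without AAV-Kl mouse 2 the old median was -0.03 with 12 of 22 lower.

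**Figure D4:**
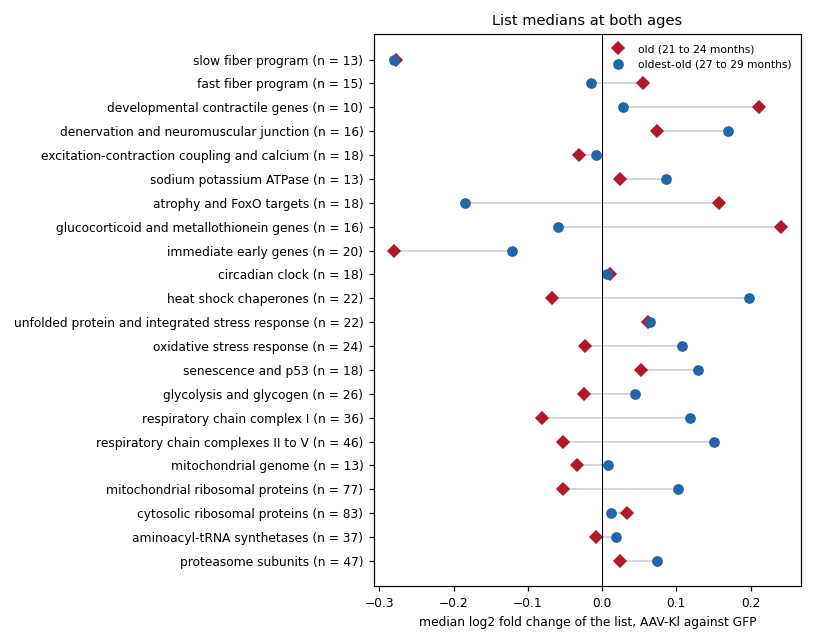
Median log2 fold change of AAV-Kl against GFP in old mice (red diamonds) and oldest-old mice (blue circles) for 22 lists of muscle fiber, stress, metabolism and translation genes, with the number of tested genes in brackets. Complex I, complexes II to V, mitochondrial ribosome and heat shock genes lie below 0 in old and above 0 in oldest-old mice; the slow fiber program lies below 0 in both.

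Slow fiber genes were mostly lower and fast fiber genes mostly higher with AAV-Kl, within the spread of the mice. Of 13 slow fiber genes 10 were lower (median log2 fold change -0.28) and 0 called. Myh7, the slow myosin heavy chain, read 25726, 22313, 36726 and 24377 with GFP and 29841, 23791, 16675 and 20042 with AAV-Kl (-0.27, not called), with GFP mouse 3 the highest. Atp2a2, the calcium pump of slow fibers, read 26898 to 41550 with GFP and 21410 to 29178 with AAV-Kl. Of 15 fast fiber genes 11 were higher (median 0.06, 0 called), and Myh1, the type IIX myosin, read 133790 to 153600 with GFP and 217540, 153450, 123080 and 172240 with AAV-Kl. Without GFP mouse 3 the slow list's median was -0.11, and oldest-old mice had 1 of 13 slow genes higher with a median of -0.28. Of 10 developmental contractile genes, which are expressed in the embryo and in repairing fibers, 9 were higher (median 0.21). One of these, Myl4, the embryonic and atrial light chain, was called (0.35 ± 0.15 (SE)), where 0.991% of all genes were called higher. Myl4 read 374, 359, 491 and 386 with GFP and 455, 640, 442 and 511 with AAV-Kl.

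At the neuromuscular junction, Rapsn was the one called gene of 16, where 0.825% of all genes were called lower. Rapsyn, its product, clusters acetylcholine receptors under the nerve terminal. It read 1263, 1257, 1304 and 1248 with GFP and 1097, 1150, 1075 and 1138 with AAV-Kl, without overlap (log2 fold change -0.19 ± 0.06 (SE)), and in oldest-old mice it was at -0.04 and not called. Receptor subunits did not share that direction. Chrng, the embryonic subunit that returns on denervation, read 11 to 55.6 with GFP and 49.4, 10.8, 58.1 and 134 with AAV-Kl (1.02, not called), and Chrnd, the delta subunit, read 135 to 285 with GFP and 247, 141, 327 and 354 with AAV-Kl. Of 18 genes of excitation-contraction coupling and 13 of the sodium potassium ATPase 0 were called, with medians of -0.03 and 0.02. Of 13 Schwann cell genes 12 were lower (median -0.12, 0 called), and without AAV-Kl mouse 4 it was 7 of 13 with a median of -0.01.

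Signalling lists tied to Klotho by earlier work are set beside all genes, of which 1.82% were called. In lists this short a count of 0 called genes is therefore no result about them. In 14 tested feedback targets of FGF and ERK, 19 of the Wnt pathway, 25 of TGF-beta and activin, 22 of insulin and IGF and 7 of vitamin D and phosphate handling, 0 were called and all medians lay between -0.02 and 0.04. Dkk2, a secreted Wnt antagonist, was the 1 Wnt gene of 19 without overlap, where 0.87% of all genes were lower without overlap. It read 570, 636, 575 and 591 with GFP and 568, 472, 410 and 409 with AAV-Kl (log2 fold change -0.35, not called). Mstn, the muscle growth inhibitor myostatin, read 3037 to 4001 with GFP and 3326 to 4059 with AAV-Kl. Of 16 calcineurin and NFAT genes 7 were higher and 9 lower (median -0.02), and without AAV-Kl mouse 2 the median was 0.01. Rcan3, a calcineurin regulator, was the 1 called gene, where 0.825% of all genes were called lower. It was lower (-0.20), with 257 to 306 counts with GFP and 234 to 264 with AAV-Kl. Of 17 tested genes of cGMP and nitric oxide signalling 13 were lower (median -0.10, 0 called).

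Atrophy genes were highest in AAV-Kl mouse 2. Of 18 atrophy and FoxO targets 15 were higher (median log2 fold change 0.16) and 1 called. Over all genes 52.7% were higher, 0.991% were called higher and 0.825% were called lower. Fbxo32, the ubiquitin ligase atrogin-1, read 15046 to 22375 with GFP and 17170, 29428, 19550 and 25111 with AAV-Kl, and Pdk4, which restrains glucose oxidation in fasting, read 49355 in AAV-Kl mouse 2 against 11268 to 24546 in the other 7. Cblb, a ubiquitin ligase of IRS1, was the called gene, at 960 to 1152 with GFP and 1625, 1603, 993 and 1085 with AAV-Kl (0.30 ± 0.14 (SE)). Without AAV-Kl mouse 2 this list's median was -0.04. Of 16 glucocorticoid and metallothionein genes 13 were higher (0.24), while the 1 called gene, the transcription factor Cebpb, was lower at 1389 to 2492 with GFP and 1341 to 1750 with AAV-Kl (-0.37). Fkbp5, a glucocorticoid target, spanned 346 in AAV-Kl mouse 3 to 6479 in AAV-Kl mouse 2. Of 22 unfolded protein and integrated stress response genes 16 were higher, of 24 oxidative stress genes 8, and of 18 senescence and p53 genes 12, and Trp53inp1, of the senescence and p53 list, was the 1 called gene among them. The 18 clock genes were split 9 and 9 with 0 called.

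Lipid synthesis and adipocyte genes were high in AAV-Kl mouse 2, and the part of fat tissue in these values was not tested. Of 16 fatty acid synthesis genes 13 were higher (median log2 fold change 0.11, 0 called), but 13 were lower without AAV-Kl mouse 2 (-0.14). Scd1, the stearoyl-CoA desaturase, read 40599, 19768, 23741 and 23987 with GFP and 16908, 119720, 13312 and 17423 with AAV-Kl, so that the 3 AAV-Kl mice other than mouse 2 were below all GFP mice. Adipocyte genes had 10 of 12 higher with AAV-Kl mouse 2 and a median of -0.52 without it. Cidec, a lipid droplet protein, read 845 to 1774 with GFP and 930, 6197, 563 and 900 with AAV-Kl. Without AAV-Kl mouse 2, the 23 lipid droplet and lipolysis genes had a median of -0.21 in place of 0.06. Of 24 sterol synthesis genes 17 were lower (-0.03) and 1 called, where 0.825% of all genes were called lower. It was Mvk, the mevalonate kinase, at 303 to 382 with GFP and 285 to 314 with AAV-Kl (-0.23). In oldest-old mice 22 of the 24 were higher and Mvk was called at 0.29, where 52.4% of all genes were higher and 7.13% called. Of 29 sphingolipid and ceramide genes 17 were higher and 0 called.

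Matrix and stromal genes were balanced. Of 42 collagen genes tested 25 were lower (median log2 fold change -0.03) and 1 was called higher, where 0.991% of all genes were. Col6a5, a collagen VI chain, read 18.1 to 31.6 with GFP and 13.8, 39.3, 136 and 432 with AAV-Kl (2.84 ± 1.12 (SE)), so that AAV-Kl mouse 1 was below all GFP mice and AAV-Kl mouse 4 far above. In oldest-old mice it was called at 2.50. Col3a1, a fibrillar collagen of the interstitium, read 3683 to 5513 with GFP and 3186, 2417, 8472 and 5667 with AAV-Kl. Matrix remodelling (45 genes), basement membrane and fiber anchors (22) and actin regulators (28) had 0 called genes and medians of 0.01, 0.03 and 0.02. Fibro-adipogenic progenitors, satellite cells and endothelial cells had medians of 0.00, 0.02 and 0.07, and smooth muscle and pericytes -0.01, each with 0 called. Tendon cell genes had 8 of 11 lower (-0.28, 0 called), but without GFP mouse 2 the median was 0.01 with 6 of 11 higher, and the tendon proteoglycan gene Fmod read 3567 to 7970 with GFP and 3260 to 6804 with AAV-Kl.

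Lists of protein synthesis and turnover had medians near 0. Of 83 cytosolic ribosomal protein genes 64 were higher (median log2 fold change 0.03) and 2 called, Rps23 higher at 0.16 and Rpl7l1 lower at -0.12. Over all genes 52.7% were higher and 1.82% were called. Rps23 read 3811 to 4613 with GFP and 4472 to 5509 with AAV-Kl, and AAV-Kl mouse 2 was highest. Without that mouse 31 of the 83 were higher and the median was -0.01. Aminoacyl-tRNA synthetases (37 genes) and proteasome subunits (47) had 0 called and medians of -0.01 and 0.02. Myokines and secreted factors of muscle had 11 of 19 lower and 0 called, potassium channels 30 of 56 higher and 0 called, and Hox genes 19 of 30 higher with Hoxc5 the 1 called.

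Liver messages were called lower with wide spread among mice. Of 18 tested hepatocyte genes 17 were lower and 6 were called lower, against 0.825% of all genes, but in 0 of them did the groups separate. Apoa1, the main apolipoprotein of HDL, read 2164, 6.38, 1.39 and 172 with GFP and 41.4, 0, 17.7 and 247 with AAV-Kl (log2 fold change -2.94). Apoa2, Hpx, Serpina1a, Serpina1b and Ahsg, all plasma protein genes of the liver, were likewise highest in GFP mouse 1. Without GFP mouse 1 the list's median moved from -2.53 to -0.09. With a liver score as a covariate 223 genes were called in place of 317. In AAV-Kl mouse 2, Trf, which encodes transferrin, and Cyp2e1, a cytochrome P450, read 7484 and 6740, while Alb was at 199. The part that liver RNA plays in the differences of other genes was not tested further.

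Skin genes were high in AAV-Kl mouse 2. All 10 keratinocyte genes had a higher fitted mean with 0 called, but 8 of 10 were lower without AAV-Kl mouse 2, and Krt77, an epidermal keratin, read 754 in AAV-Kl mouse 2, 35 in GFP mouse 4 and 0 to 1.2 in the others. Red cell genes were high in AAV-Kl mice 1 and 2. Hbb-bs, adult beta-globin, read 2066 to 3386 with GFP and 11114, 8066, 1249 and 2295 with AAV-Kl (log2 fold change 0.96, not called). Alas2, the first enzyme of heme synthesis in erythroid cells, read 181 to 211 with GFP and 762, 686, 96.4 and 136 with AAV-Kl. AAV-Kl mice were thus either above or below the GFP range for Alas2. Of 9 erythroid genes 8 were higher in old mice and 0 called, while in oldest-old mice 9 of 9 were lower, 6 of them called, and 6 had an unadjusted p under 0.05 for the difference between ages. Over all genes these shares were 7.13% and 5.1%.

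The genes called in old mice did not lean to one direction in oldest-old mice. Of the 317 called genes 142 (44.8%) had the same direction in oldest-old mice, and of all tested genes 46.5% did. In oldest-old mice 1246 genes were called (7.13%) and 2 passed the adjusted test (0.0115%). Of the genes called at both ages, 12 had the same direction and 21 the opposite one, together 10.4% of the old calls, where 7.13% of all genes were called in oldest-old mice, and 2.65% of the oldest-old calls. The overlap was not tested. Of the 24 named genes Lrmda was alike at both ages, at 0.29 in old and 0.32 in oldest-old mice, and called at both. It read 93.2, 108, 108 and 118 with GFP and 121, 141, 126 and 133 with AAV-Kl in old mice. Zfp949 was opposite, at 0.22 and -0.33, and Ankrd39 and Jade1 were opposite as well, with the difference between ages called in all 3. No difference between the ages passed the adjusted test.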

How the data were processed

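RNA from 1 mouse per library was sequenced. According to the study's methods and the submitters' processing notes, the authors checked reads with FastQC, aligned them with STAR to GRCm38 (mm10) and compared groups with DESeq2. The deposited tables hold read counts per gene as STAR wrote them, and the column counted without regard to strand was used here, after dropping the 4 summary lines. STAR counts reads that map to 1 place and overlap 1 gene, so near-identical copies and overlapping genes are uncertain. Of 55385 gene IDs, 54487 matched GENCODE mouse release 21 with their version number, and the release used by the authors is not given in the sources used here.

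Genes with too few reads were removed with edgeR's filterByExpr (minimum count 10), which left 17465. Counts were scaled by TMM and tested with edgeR 4.0.16 (R 4.3.3) by its quasi-likelihood test, in 1 fit over 5 groups of uninjured mice (20 libraries), with Benjamini-Hochberg adjustment over all genes. P-values set the difference between groups against the spread between mice, which was estimated over all 20 libraries. On simulated counts for the old comparison over 17465 genes, 89% of genes changed by 1 log2 unit and 98% of those changed by 2 were recovered. Changes were planted only in genes with higher counts. Each gene was drawn on its own, so no simulated mouse stood apart in many genes at once. Of unchanged genes 4.67% had an unadjusted p under 0.05 and 10 passed the adjusted test, against 1.82% and 0 of all genes in the real comparison. The recovered shares therefore do not give the power in these libraries. With 4 mice per group the smallest two-sided p of an exact permutation test is 0.0286.

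The named genes are the 12 largest increases and the 12 largest decreases among genes with an unadjusted p under 0.05, no overlap between groups, a mean of at least 50 normalized counts in 1 group, and a symbol that is not a clone or predicted gene. Of these, 1 gene is not reported here. Also named are list members with such a p, the 2 most abundant and the 2 most different members of a list, and Klotho with its receptors. The comparison, the 64 gene lists and the rule were chosen with earlier results of these data known, so no list serves as independent support. Alternatives were DESeq2 (1.42.0) and its size factors, no filter on low counts, the 8 old libraries alone and a replicate block. Others were a liver score as covariate, the sum of the stranded columns, and leaving out each of the 8 old mice. Figures were drawn with matplotlib 3.10.9.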

Additional observations from a re-analysis of the deposited data

Results flagged for a closer look

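In groups of 4, a mouse is named here when its gap to the nearest other mouse, divided by the group's range, passed Dixon's critical value. Of 176 groups looked at, over 64 lists and 24 named genes, 12 did so, and chance gives about 1 in 20. Values are the mean log2 CPM over a list's members.

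AAV-Kl mouse 2 stood apart from the other AAV-Kl mice for keratinocyte genes (2.84, others -2.75 to -2.13), adipocyte genes (6.74, others 4.72 to 5), mast cell genes (1.87, others 0.705 to 0.874) and fatty acid synthesis (6.66, others 5.21 to 5.39). It was also highest for atrophy and FoxO targets (6.78, others 6.18 to 6.26) and cytosolic ribosomal proteins (6.54, others 6.33 to 6.34), and lowest for denervation and neuromuscular junction genes (3.29, others 3.73 to 3.81). Its log2 CPM of Mbtd1 were 3.74, against 3.52 to 3.55.

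AAV-Kl mouse 3 stood apart for replication and mitosis genes (1.72, others -0.0509 to 0.152), and AAV-Kl mouse 1 for fibro-adipogenic progenitor genes (5.38, others 5.45 to 5.46). Among GFP mice, mouse 4 was lowest for smooth muscle and pericyte genes (4.83, others 5 to 5.02), and mouse 3 was highest for Smyd5 (3.55, others 3.42 to 3.44).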

How the results depend on the processing

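No alternative gave a gene an adjusted p under 0.05 for AAV-Kl against GFP in old mice. The unadjusted count of 317 was 728 with no filter on low counts, 210 with a replicate block, and 231 (without GFP mouse 1) to 550 (without AAV-Kl mouse 4) when single mice were left out. DESeq2 called 415 (1.14%) over 20 libraries and 398 (1.21%) over 8, and a fit of the 8 libraries alone 313 (1.93%). More genes were tested by DESeq2 and with no filter than in the main fit, so counts and shares can differ in direction. The sum of the stranded columns gave 357 and the liver covariate 223. Leaving out GFP mice 1 and 4 and AAV-Kl mice 2 and 4, which were highest in summed liver or skin markers, gave 291 and was chosen after seeing the data. In that fit 0 of the 24 named genes was called. The count of 890 for the difference between ages was 521 there and 649 to 1157 when single old mice were left out. With no filter 1 gene passed the adjusted test for that difference.

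Mice with the same replicate number did not deviate together (correlations of -0.0671, -0.0317, -0.0153 and 0.108), and GFP mouse 1 correlated best with AAV-Kl mouse 4 (0.323), so the numbers were not taken as pairs. With the replicate block 12 of the 24 named genes were called.

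The receptor genes Klb, Fgfr1, Fgfr2 and Fgfr4, none of them called, changed sign. Kl and Fgfr3 (-0.16 in the main fit), neither called there, stayed below 0 in every fit that tested them. Klb ranged from -0.659 to 1.21, Fgfr1 from -0.0848 to 0.169, Fgfr2 from -0.888 to 0.909 and Fgfr4 from -0.119 to 0.152 when single mice were left out, with Fgfr4 also at -0.0973 and -0.0614. In the fit of 4 libraries Klb was -0.586 and Fgfr2 -0.748, and with the replicate block Fgfr2 was -0.122 and Fgfr4 -0.0185. Of the 64 list medians, 34 changed sign in at least 1 fit that left out a mouse. The cause was not tested.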
